A study of Mus musculus with 2 samples.

Results

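Genes of the interferon response and of antigen presentation were compared between 2 xenograft tumors. The list held 41 genes, found by symbol in a table of 62573 rows in which a row names a gene or several overlapping genes merged into 1 locus. Of the 41 genes, 27 stood alone in the table with at least 1 FPKM in a library and are called expressed below. A further 9 stood alone under 1 FPKM in both libraries. The remaining 5 stood only in merged loci, of which those with IFITM1, IFITM2 and GBP2 reached 1 FPKM and those with IRF9 and TAPBP did not. The rule that defined the list used function and symbol and no expression value, but members were chosen with earlier results of these data known.

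RNA was sequenced from a metastatic and a primary gastroenteropancreatic neuroendocrine tumor, each a patient-derived xenograft, which is a human tumor kept growing in mice. The metastatic tumor grew in the peritoneal cavity and the primary tumor in the flank, both without treatment and both in athymic nude mice of strain Foxn1nu, which lack mature T cells and keep innate immune cells. Tumors were dissociated with a kit for mouse tumors before RNA was taken, and the handling of mouse reads is not stated by any source used here. Each group held 1 library, so nothing below has a replicate check or a test, and graft site and tumor origin cannot be told apart. The labels give neither the age of the mice nor whether animals were pooled.

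Interferons are secreted proteins that cells make when sensors detect foreign or misplaced nucleic acid. They bind receptors coupled to JAK kinases, which activate STAT proteins; STAT2 and IRF9 are subunits of the complex that switches on interferon-stimulated genes. Many of these genes restrict viruses, and a low activity of the pathway persists in many tissues without infection. Interferon-gamma also raises the machinery that loads peptides on MHC class I molecules for T cells to inspect. It is strongly species-specific, so mouse interferon-gamma does not act on human cells.

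Values were FPKM, fragments scaled to transcript length and to a total of mapped fragments, so levels of different genes may be set side by side. They summed to 885319 in the metastatic and 784987 in the primary library, and read depth is unknown. All 5 epithelial markers were expressed, with 1 at least 2-fold higher and 0 lower in the metastatic tumor. They summed to 2469 FPKM in the metastatic and 1295 FPKM in the primary tumor. KRT8 was the most abundant, at 1423 FPKM in the metastatic and 649 FPKM in the primary tumor. EPCAM stood at 85.5 FPKM in the metastatic and 62.5 FPKM in the primary tumor. Of 8 markers of the labelled neuroendocrine type 5 were expressed, with 0 at least 2-fold higher and 3 lower in the metastatic tumor, and those listed alone summed to 5.89 FPKM in the metastatic and 29.3 FPKM in the primary tumor. PCSK1 gave most of the primary sum, at 2.74 FPKM in the metastatic and 19.9 FPKM in the primary tumor, while SYP stood at 1.96 FPKM in the metastatic and 1.63 FPKM in the primary tumor. CHGA was listed at 0 in both libraries, under a label with 2 rows, for which a 0 does not show a missing transcript. Log2 ratios below are log2((metastatic + 1)/(primary + 1)), which understates differences of low genes, and a gene was called higher or lower at a 2-fold difference on that scale.

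The members did not differ together in 1 direction. NLRC5, GBP1 and ISG15 were at least 2-fold higher in the metastatic tumor, and BST2, OAS1 and IFI44 at least 2-fold lower. That is 3 of 27 expressed members higher and 3 lower, or 11.1% each way. Among all 12984 expressed genes, 9.34% were higher and 9.54% lower, so the members' shares were near the background at this filter and pseudocount. The median log2 ratio was -0.08 over the expressed members and 0.03 over all expressed genes. Of the 27 members 12 had a ratio above 0 and 15 below, and 51.3% of all expressed genes had a ratio above 0. Of the 27 members, 24 reached 1 FPKM in both libraries; GBP1 passed through the metastatic library alone and IFIT1 and IFI44 through the primary library alone. Rescaling both libraries to the same sum shifted the metastatic against the primary values by -0.17 on the log2 scale, left ISG15 at 0.89, under the 2-fold threshold, and turned MX2 and DTX3L to below 0.

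**Figure D1:**
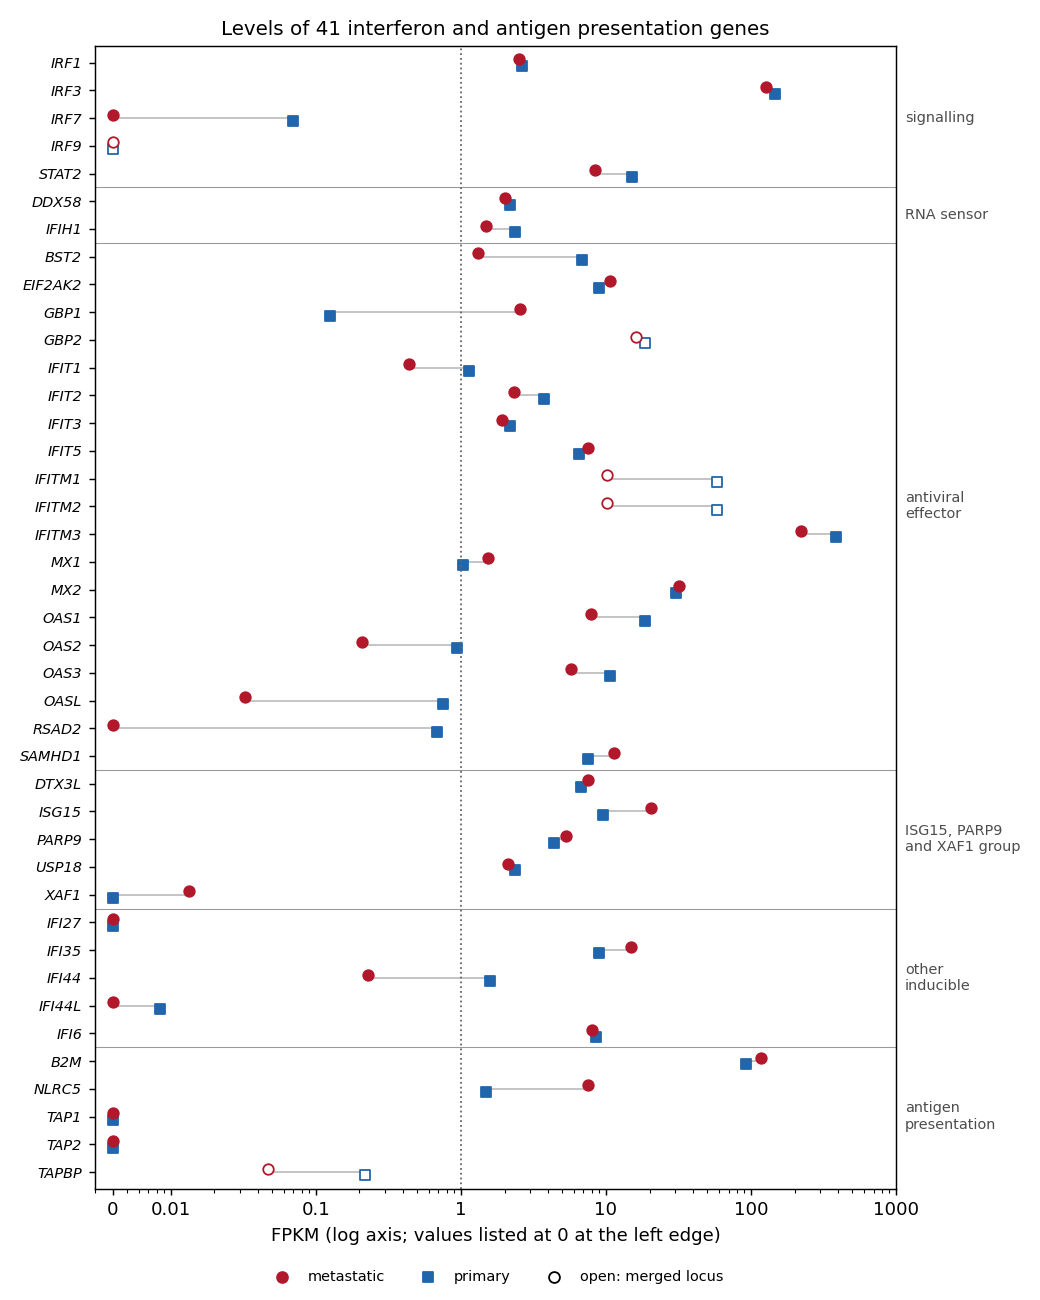
FPKM of the 41 genes in the metastatic (circles) and primary (squares) library on a log axis, in blocks by role, with open symbols for merged loci, values listed at 0 at the left edge and a dotted line at 1 FPKM. IFITM3, IRF3 and B2M were the most abundant members in both libraries, and the longest gaps between the libraries lay among low genes such as GBP1, OASL and RSAD2.

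Levels of the members spanned a wide range. The membrane protein gene IFITM3, whose product blocks virus entry, was the most abundant member, and IRF3 and B2M came next. Together IFITM3 and B2M made up 53.6% of the summed FPKM of the expressed members in the metastatic and 60.6% in the primary tumor. The median expressed member stood at 7.48 FPKM in the metastatic and 6.75 FPKM in the primary tumor, against medians of 9.3 and 9.8 FPKM over all expressed genes in the metastatic and primary library. By the mean of both libraries, 3 expressed members were at 50 FPKM or more, 5 between 10 and 50, 10 between 3 and 10, 7 between 1 and 3, and 2 under 1.

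The 3 expressed genes of the signalling arm, STAT2, IRF3 and IRF1, had ratios below 0, none of them past 2-fold. STAT2, a subunit of the complex that answers type I interferon, stood at 8.39 FPKM in the metastatic and 15.2 FPKM in the primary tumor, a log2 ratio of -0.79. IRF3, the constitutive factor that sensors activate to start interferon transcription, stood at 127 FPKM in the metastatic and 147 FPKM in the primary tumor. Only 7.21% of expressed genes stood above it in the metastatic and 4.78% in the primary library. IRF1, a factor induced by interferon-gamma, was nearly level at 2.53 FPKM in the metastatic and 2.62 FPKM in the primary tumor. IRF7, which amplifies type I interferon transcription, was at 0 FPKM in the metastatic and 0.0698 FPKM in the primary tumor. IRF9 appeared only in loci merged with RNF31, at 0 in both libraries.

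Both cytosolic RNA sensors were low and within 2-fold. DDX58, which encodes RIG-I, stood at 2.01 FPKM in the metastatic and 2.19 FPKM in the primary tumor. IFIH1, which encodes MDA5, a sensor of long double-stranded RNA, stood at 1.48 FPKM in the metastatic and 2.35 FPKM in the primary tumor, a log2 ratio of -0.44.

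Of 19 antiviral effectors 13 were expressed, with 1 or 7.69% higher, 2 or 15.4% lower and a median log2 ratio of -0.13. Among all expressed genes 9.34% were higher and 9.54% lower. Every gene of the oligoadenylate synthetase family, whose enzymes activate RNase L, had less FPKM in the metastatic tumor, although only OAS1 passed the 2-fold threshold. OAS1 stood at 7.86 FPKM in the metastatic and 18.5 FPKM in the primary tumor, a log2 ratio of -1.14. OAS3 stood at 5.77 FPKM in the metastatic and 10.6 FPKM in the primary tumor, a log2 ratio of -0.78. The other members of the family were under 1 FPKM in both libraries and so are not among the expressed members. OAS2 stood at 0.208 FPKM in the metastatic and 0.938 FPKM in the primary tumor, and OASL, which lacks synthetase activity, at 0.0327 FPKM in the metastatic and 0.748 FPKM in the primary tumor. RSAD2, which encodes viperin, was listed at 0 in the metastatic tumor and stood at 0.688 FPKM in the primary tumor. With a pseudocount of 0.1 FPKM in place of 1, the log2 ratios were -1.75 for OAS2, -2.68 for OASL and -2.98 for RSAD2, which rest on very low values. With that pseudocount and no filter, a setting chosen after the data were seen, 7 of 36 members standing alone were at least 2-fold lower, or 19.4%, against 6.96% of 55668 genes, most of them under 1 FPKM. With that pseudocount and the 1 FPKM filter, 4 of 27 members were lower, or 14.8%, against 14.2% of 12984 genes. The direction of OAS1, OAS2, OAS3 and OASL held under every scaling tried. Each scaling lowered the metastatic against the primary values, so that direction could not have turned.

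Membrane-anchored restriction factors also had less FPKM in the metastatic tumor. BST2, which encodes tetherin, a protein that holds budding virus at the cell surface, stood at 1.32 FPKM in the metastatic and 6.79 FPKM in the primary tumor, a log2 ratio of -1.75. IFITM3 stood at 221 FPKM in the metastatic and 386 FPKM in the primary tumor, a log2 ratio of -0.80. IFITM1 and IFITM2, its close relatives, shared 1 merged locus at 10.2 FPKM in the metastatic and 58.4 FPKM in the primary tumor, a log2 ratio of -2.41. The share of each gene in that locus is unknown, and since these 3 genes are similar in sequence their single values are uncertain. Counting merged loci as expressed members gave 4 of 29 lower, or 13.8%, and 3 higher, or 10.3%, against 9.35% lower and 9.22% higher of 13811 genes and loci.

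The IFIT family, whose proteins bind viral RNA ends and translation factors, went both ways within 2-fold. IFIT1 stood at 0.442 FPKM in the metastatic and 1.14 FPKM in the primary tumor, a log2 ratio of -0.57 that became -1.20 with a pseudocount of 0.1 FPKM. IFIT2 stood at 2.31 FPKM in the metastatic and 3.77 FPKM in the primary tumor. IFIT3, at 1.91 FPKM in the metastatic and 2.18 FPKM in the primary tumor, was close to level. The family's most abundant gene, IFIT5, was the one with more FPKM in the metastatic tumor, at 7.57 FPKM against 6.53 FPKM in the primary tumor.

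The dynamin-like GTPases MX1 and MX2, which trap viral nucleocapsids, did not share the gap of the OAS genes. MX1 stood at 1.54 FPKM in the metastatic and 1.04 FPKM in the primary tumor. MX2 was far more abundant and nearly level, at 32.1 FPKM in the metastatic and 30.6 FPKM in the primary tumor. EIF2AK2, which encodes the kinase PKR that halts translation, stood at 10.7 FPKM in the metastatic and 9.01 FPKM in the primary tumor. SAMHD1, a phosphohydrolase that depletes nucleotides, stood at 11.3 FPKM in the metastatic and 7.52 FPKM in the primary tumor, a log2 ratio of 0.53.

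Among guanylate-binding proteins, GTPases that are classic targets of interferon-gamma, GBP1 stood at 2.56 FPKM in the metastatic and 0.126 FPKM in the primary tumor. The FPKM ratio was 20.4 and the log2 ratio with the pseudocount 1.66, and the primary value is a very low one. GBP2 was read only as a locus with GBP7, at 16 FPKM in the metastatic and 18.6 FPKM in the primary tumor. Genes of this family resemble each other in sequence, so reads may have been shared between them.

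**Figure D2:**
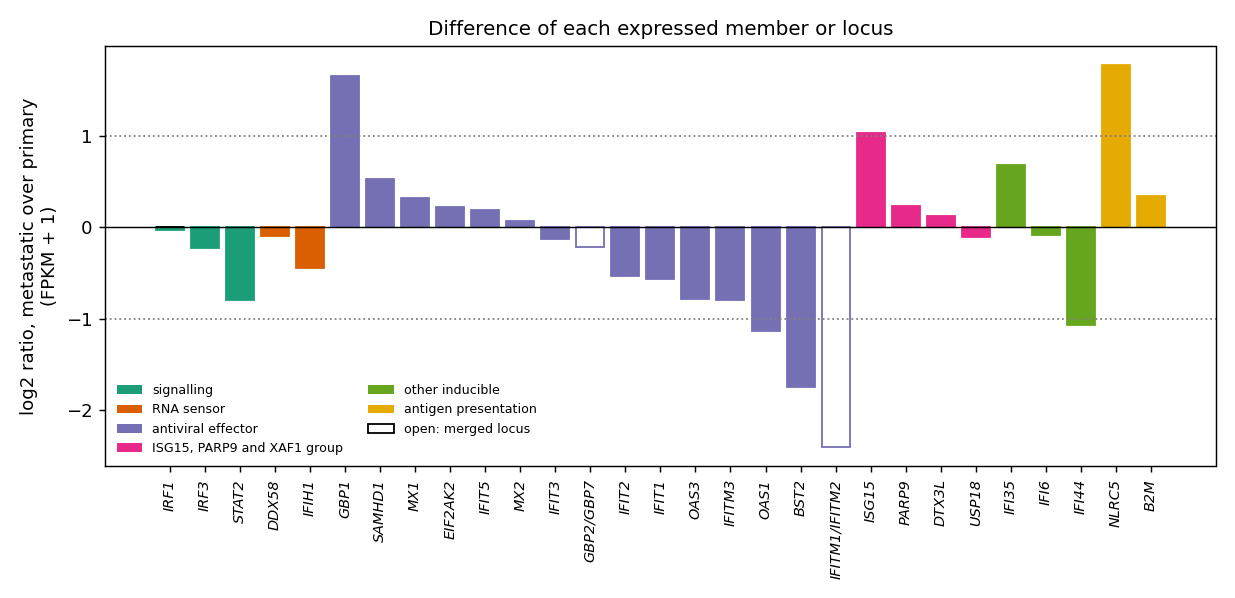
Log2 ratio of FPKM + 1, metastatic over primary, for each expressed member and for the merged loci IFITM1/IFITM2 and GBP2/GBP7 (open bars), coloured by role, with dotted lines at 2-fold. Bars past the upper line are GBP1, ISG15 and NLRC5, and those past the lower line are OAS1, BST2, IFI44 and the IFITM1/IFITM2 locus.

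ISG15 encodes a ubiquitin-like protein that is attached to other proteins or secreted. It stood at 20.5 FPKM in the metastatic and 9.49 FPKM in the primary tumor, a log2 ratio of 1.04, just over the 2-fold threshold. None of 3 enzymes of its attachment was 2-fold higher with it. UBE2L6, the conjugating enzyme, stood at 1.62 FPKM in the metastatic and 6.26 FPKM in the primary tumor, a log2 ratio of -1.47. UBA7, the activating enzyme, stood at 2.25 FPKM in the metastatic and 3.02 FPKM in the primary tumor, and the ligase HERC5 at 0.47 FPKM in the metastatic and 0.458 FPKM in the primary tumor. USP18, which removes ISG15 and dampens receptor signalling, stood at 2.11 FPKM in the metastatic and 2.37 FPKM in the primary tumor. UBA7 and HERC5 were chosen for naming after their values were seen.

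PARP9 and DTX3L, partners in a complex that modifies histones, were close to level together. PARP9 stood at 5.29 FPKM in the metastatic and 4.37 FPKM in the primary tumor, and DTX3L at 7.48 FPKM in the metastatic and 6.75 FPKM in the primary tumor. XAF1, which promotes cell death and is often silenced in tumors, was all but missing from the table, at 0.0133 FPKM in the metastatic and 0 in the primary tumor.

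Other inducible genes were mixed. IFI44, a cytosolic protein gene of the type I response, stood at 0.23 FPKM in the metastatic and 1.58 FPKM in the primary tumor, a log2 ratio of -1.07. Its paralog IFI44L was at 0 in the metastatic and 0.0085 FPKM in the primary tumor. IFI6, whose product sits in organelle membranes, was level at 7.99 FPKM in the metastatic and 8.5 FPKM in the primary tumor. IFI35 stood at 14.9 FPKM in the metastatic and 8.95 FPKM in the primary tumor, a log2 ratio of 0.68. NMI, which encodes its binding partner, had the opposite sign, at 1.88 FPKM in the metastatic and 5.98 FPKM in the primary tumor, a log2 ratio of -1.28. IFI27 was listed at 0 in both libraries.

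NLRC5 was the antigen presentation gene past 2-fold. It encodes the transactivator of MHC class I genes and stood at 7.54 FPKM in the metastatic and 1.49 FPKM in the primary tumor, a log2 ratio of 1.78. Whether NLRC5 or GBP1 had the highest ratio of the members depended on the pseudocount, with 2.27 for NLRC5 and 3.56 for GBP1 at 0.1 FPKM. B2M, the invariant light chain of class I molecules, was abundant and within 2-fold, at 118 FPKM in the metastatic and 92.2 FPKM in the primary tumor, a log2 ratio of 0.35. The RFX complex acts with NLRC5 at class I promoters. Its subunit RFXAP stood at 4.87 FPKM in the metastatic and 1.69 FPKM in the primary tumor, a log2 ratio of 1.13. RFX5 and RFXANK, named after their values were seen, had log2 ratios of 0.89 and 0.32, with RFX5 at 15.8 FPKM in the metastatic and 8.04 FPKM in the primary tumor.

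The locus that merges HLA-B with HLA-C, summed over 6 rows, stood at 15.5 FPKM in the metastatic and 12.5 FPKM in the primary tumor, a log2 ratio of 0.28. HLA-C also stood alone, at 1.31 FPKM in the metastatic and 0.582 FPKM in the primary tumor, a log2 ratio of 0.55. These heavy chain genes are alike in sequence and highly variable between people, and the merged label is a repeated one, so their levels are uncertain.

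The peptide transporter genes TAP1 and TAP2, each with 8 rows, were listed at 0 in both libraries, apart from a locus of TAP2 with HLA-DOB that was under 1 FPKM. TAPBP, which encodes tapasin and bridges the transporter to class I molecules, stood only in 5 rows merged with ZBTB22, summing to 0.0471 FPKM in the metastatic and 0.218 FPKM in the primary tumor. The immunoproteasome genes PSMB8 and PSMB9 also had 8 rows each, all at 0, and the proteasome activator genes PSME1 and PSME2 had 2 rows each, all at 0. A 0 of this kind went with a label that occurs in several rows. Among gene symbols shared with a protein-coding mouse gene, 66.5% of the 768 with 2 or more rows were at 0 in both libraries, against 10.2% of the 13664 with 1 row. Of the 7 members with 2 or more rows, 6 were under 1 FPKM in both libraries, namely IRF7, IRF9, IFI27, TAP1, TAP2 and TAPBP, and B2M was the exception. Of the 34 members with 1 row, 5 were under 1 FPKM in both. A value at or near 0 for those 6 genes does not show that the transcript was missing.

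**Figure D3:**
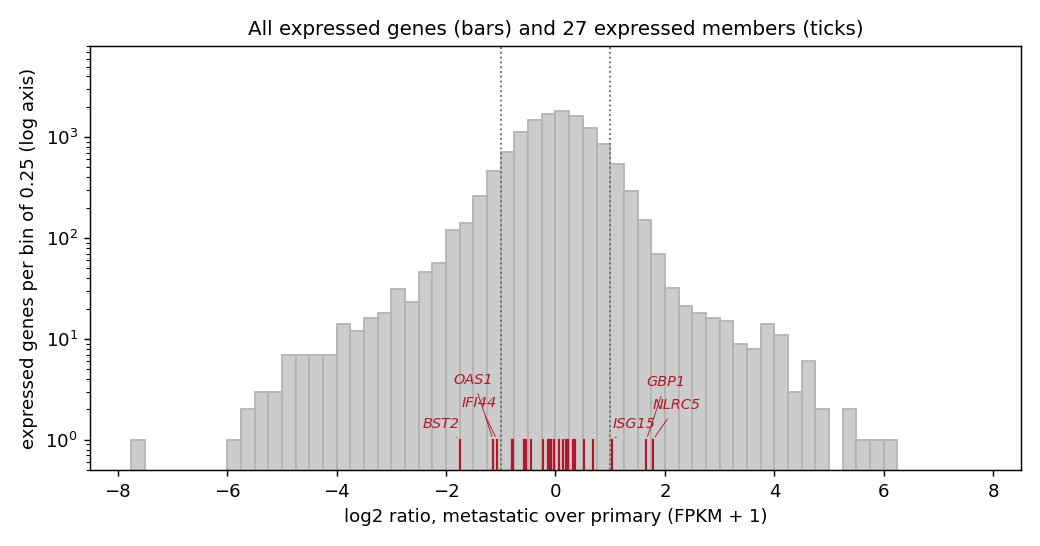
Number of expressed genes by log2 ratio of FPKM + 1, metastatic over primary, in bins of 0.25 on a log axis (bars), with a tick for each of the 27 expressed members and dotted lines at 2-fold. The ticks run from BST2 at -1.75 to NLRC5 at 1.78, with 21 of the 27 between the lines, and the bars of the 12984 genes extend further on both sides.

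Interferon genes themselves were all but unread. Of 21 type I, type II and type III interferon genes, 16 were listed at 0 in both libraries and 0 reached 1 FPKM; the highest was IFNE, an epithelial interferon, at 0.463 FPKM in the metastatic and 0.132 FPKM in the primary tumor. Receptors and transducers were present. Of 19 genes listed for receptors and signalling, 15 were expressed, with 0 at least 2-fold higher, 2 or 13.3% lower and a median log2 ratio of -0.16, beside 9.34% higher and 9.54% lower of all expressed genes. The 2 lower ones were UBE2L6 and SOCS3, a feedback inhibitor of JAK kinases, which stood at 0.262 FPKM in the metastatic and 3.34 FPKM in the primary tumor, a log2 ratio of -1.78. JAK2, a kinase of the interferon-gamma receptor, stood at 2.06 FPKM in the metastatic and 4.6 FPKM in the primary tumor. STAT3 stood at 14.8 FPKM in the metastatic and 24.4 FPKM in the primary tumor.

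Receptor and kinase genes of the type I pathway were within 2-fold; those given here were named after their values were seen. IFNAR1, a receptor chain, stood at 27.6 FPKM in the metastatic and 34.6 FPKM in the primary tumor. The receptor kinases JAK1 and TYK2 had log2 ratios of -0.26 and -0.15.

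Of 24 genes for nucleic acid sensing and its adaptors, 10 were expressed, with 0 higher, 2 or 20% lower and a median of 0.10, against the same background. IFI16, a sensor of DNA, stood at 5.8 FPKM in the metastatic and 21.9 FPKM in the primary tumor, a log2 ratio of -1.75. The DNA sensor CGAS had the opposite sign within 2-fold, at 9.8 FPKM in the metastatic and 5.14 FPKM in the primary tumor. NLRX1, a mitochondrial regulator of antiviral signalling, stood at 0.647 FPKM in the metastatic and 3.46 FPKM in the primary tumor, a log2 ratio of -1.44. TRAF3, an adaptor below the sensors, stood at 6.75 FPKM in the metastatic and 3.48 FPKM in the primary tumor.

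A list of 46 further interferon-inducible genes had 28 expressed, with 1 or 3.57% higher, 2 or 7.14% lower and a median of 0.03, both shares under those of all expressed genes. SHFL, an inhibitor of ribosomal frameshifting, stood at 229 FPKM in the metastatic and 106 FPKM in the primary tumor, a log2 ratio of 1.10. WARS, a tryptophanyl-tRNA synthetase that interferon-gamma induces, stood at 94.8 FPKM in the metastatic and 48.8 FPKM in the primary tumor, a log2 ratio of 0.94. NMI, above, and APOL1, at 0.618 FPKM in the metastatic and 2.47 FPKM in the primary tumor, were the lower ones. The further antigen presentation list had 9 of 29 genes expressed, with 3 or 33.3% higher, 0 lower and a median of 0.89, on few genes. Among all expressed genes 9.34% were higher and 9.54% lower. RFXAP and the lectin chaperone partners CALR and PDIA3 were the higher ones of the list. CALR and PDIA3 also fold glycoproteins in general. Another 14 genes of the list stood alone under 1 FPKM, most with labels of several rows, so these shares leave out much of the machinery. CALR stood at 3581 FPKM in the metastatic and 1451 FPKM in the primary tumor, and PDIA3 at 320 FPKM in the metastatic and 140 FPKM in the primary tumor. CANX, a membrane-bound chaperone of the same folding cycle, stood at 162 FPKM in the metastatic and 86.9 FPKM in the primary tumor. With both libraries rescaled to the same sum, SHFL was under 2-fold at 0.93, and JAK2 was past it at -1.04.

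**Figure D4:**
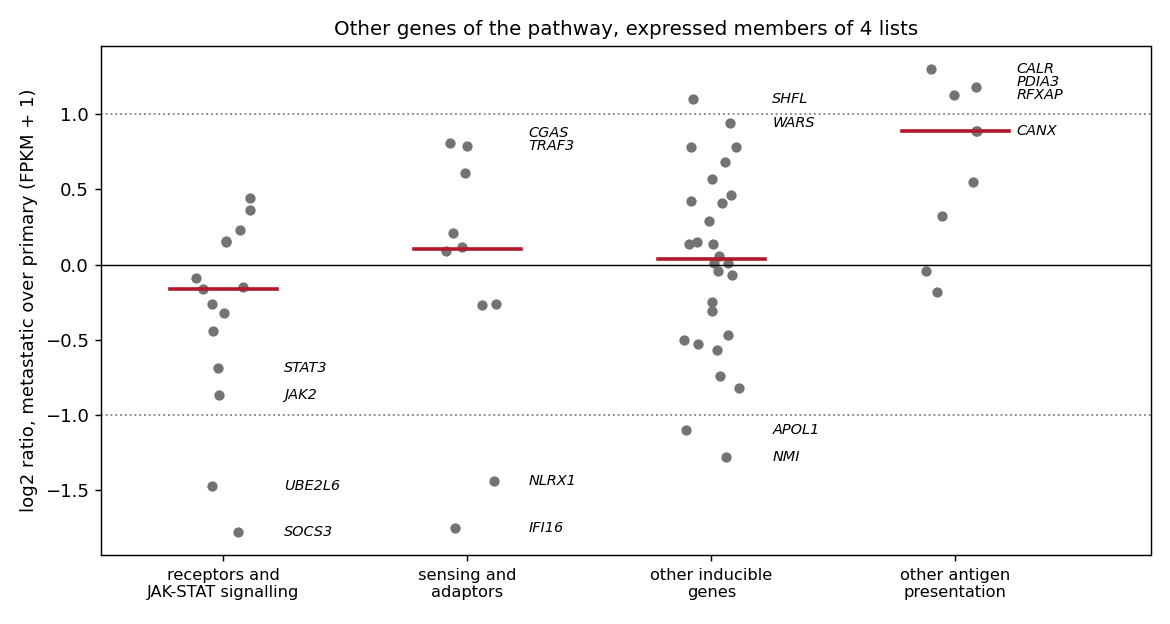
Log2 ratio of FPKM + 1, metastatic over primary, of expressed genes in 4 further lists (points), with the list's median (line), dotted lines at 2-fold and the 4 genes furthest from 0 named beside their values. Medians were -0.16 for receptors and signalling, 0.10 for sensing, 0.03 for other inducible genes and 0.89 for antigen presentation.

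Markers of other cells were read beside these genes, because in a bulk sample fewer cells of a type and less RNA per cell cannot be told apart. Of 23 leukocyte markers 3 were expressed, namely CD3D, CSF1R and LYZ. Markers listed alone summed to 17.3 FPKM in the metastatic and 10.4 FPKM in the primary tumor, of which LYZ gave 12 FPKM in the metastatic and 2.72 FPKM in the primary tumor. PTPRC, the pan-leukocyte marker, stood at 0.0403 FPKM in the metastatic and 0.111 FPKM in the primary tumor, and CD3E was listed at 0 in both. Of 10 fibroblast markers 7 were expressed, and those listed alone summed to 180 FPKM in the metastatic and 557 FPKM in the primary tumor, with COL1A2 giving most of both sums. DCN went the other way, at 2.89 FPKM in the metastatic and 0.37 FPKM in the primary tumor. LUM was at 0.0859 FPKM in the metastatic and 0 in the primary tumor, and THY1 was under 1 FPKM in both. Of 8 endothelial markers 3 were expressed, summing with the others to 4.8 FPKM in the metastatic and 27.1 FPKM in the primary tumor. EGFL7 gave most of the primary sum, at 1.58 FPKM in the metastatic and 19.1 FPKM in the primary tumor, VWF had the opposite sign, at 0.505 FPKM in the metastatic and 0.259 FPKM in the primary tumor, and PECAM1, CDH5 and KDR were under 1 FPKM in both. The fibroblast and endothelial sums, carried by COL1A2 and EGFL7, had the direction of BST2, IFITM3, the IFITM1/IFITM2 locus and the OAS genes. The neuroendocrine sum, 5.89 FPKM in the metastatic and 29.3 FPKM in the primary tumor, had that direction too. The epithelial sum and the leukocyte sum, the latter carried by LYZ, had the opposite direction. The part of any of these cell types in those values was not tested. How many fragments of mouse host cells were counted on the human genes was not tested.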

How the data were processed

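RNA-seq values of 1 metastatic and 1 primary xenograft library came from the authors' deposited table of 62573 rows, in FPKM. Tools named without role or order, per the submitters' processing notes, are Cufflinks 2.2.1, STAR 2.7.6a and bcl2fastq 2.18.0.12, with the build GRCh38; the labels give mouse as the organism. The annotation is not given in the sources used here, and positions and sequences were not used here because the reference tables are of mouse.

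Rows with the same label were summed. A merged row was assigned to a gene if all else in its label was a clone, a short RNA, or an intergenic or antisense noncoding RNA; other merged loci were kept apart. The 12984 genes that reached 1 FPKM in either library were called expressed. Ratios used a pseudocount of 1 FPKM and no rescaling. Named genes were all members and up to 4 genes with the largest absolute log2 ratio of each further list, beside markers. Members and lists were chosen with earlier results of these data known. Some genes of the further lists are not reported here and are left out of their counts. The procedure was tested on simulated data without noise, with large differences planted only in genes well above the filter. Low genes and differences near 2-fold were not covered by it. Alternatives were pseudocounts of 0.1 and 0.5, no filter, a filter of 5 FPKM, a 4-fold threshold, 4 scalings and other treatments of merged and repeated rows. Python 3.11.15, pandas 2.3.3, numpy 2.4.6 and matplotlib 3.10.9 were used.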

Additional observations from a re-analysis of the deposited data

How the results depend on the processing

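Depth is unknown and each group held 1 library, so no library could be left out. No paired analysis was possible because each group held 1 library. At a 4-fold threshold 0 of 27 members were higher and 0 lower. Of all 12984 expressed genes 160 or 1.23% were higher and 254 or 1.96% lower, so 0 among so few members says little. Without a filter and with a pseudocount of 0.1 FPKM, chosen after seeing the data, 7 of 36 members were lower, or 19.4%, against 3877 or 6.96% of 55668 genes, most of them under 1 FPKM, and 3 members were higher, or 8.33%, against 3566 or 6.41%. This lower share was above the background, which without a filter holds mostly genes under 1 FPKM. With the same pseudocount and the 1 FPKM filter, 4 of 27 members were lower, or 14.8%, against 14.2% of 12984 genes. With no filter and a pseudocount of 1 FPKM, 8.33% of members were lower, against 2.23% of 55668 genes. The share of members higher at that setting was also 8.33%, against 2.18% of genes. Against the main setting, the members added with no filter and a pseudocount of 0.1 FPKM were IFIT1, OAS2, OASL and RSAD2, none above 1.14 FPKM. With a filter of 5 FPKM 824 of all genes were lower, on fewer genes tested, and the members' median was 0.13 in place of -0.08. Requiring a mean of 1 FPKM over both libraries, also chosen after seeing the data, left 3 of 25 members higher, or 12%, and 2 lower, or 8%. Of 12145 genes at that filter 8.92% were higher and 9.12% lower. The median of all genes was 0.07 with a filter of 5 FPKM, 0.00 without a filter at either pseudocount, 0.00 after scaling to the median ratio, -0.03 after scaling to the 75th percentile, and -0.12 for each library scaled to a sum of 1000000, with short and mitochondrial RNAs counted in that sum or not. Scaling to that sum left 36.3% of all 2-fold calls higher, against 49.5% without it. Every scaling kept BST2, IFI44 and OAS1 lower and GBP1 and NLRC5 higher. Each scaling lowered the metastatic against the primary values, so BST2, IFI44 and OAS1 could not have moved the other way. ISG15 was under 2-fold at 0.97 by the 75th percentile and at 0.89 by both sums.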

Other observations

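The genes of MHC class II presentation and of the interferon-gamma chemokine response named here were low in both tumors. They were chosen for naming after their values were seen, and only CD74 among them reached 1 FPKM. CIITA, the class II transactivator, stood at 0.0396 FPKM in the metastatic and 0.063 FPKM in the primary tumor, and CD74, the invariant chain, at 1.45 FPKM in the metastatic and 1.51 FPKM in the primary tumor. CXCL9 was listed at 0 in both, and CXCL10 stood at 0.0433 FPKM in the metastatic and 0.303 FPKM in the primary tumor. Its relative CXCL11 stood at 0.0745 FPKM in the metastatic and 0.132 FPKM in the primary tumor. Values this far under 1 FPKM cannot show a direction. CD274, which encodes the checkpoint ligand PD-L1, stood at 1.48 FPKM in the metastatic and 0.851 FPKM in the primary tumor.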
